A study of Homo sapiens with 6 samples.

Results

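Heterotrimeric G proteins and their RGS regulators are the signalling proteins immediately upstream of GIRK channels, and their transcripts were followed in MCF10A cells that overexpress GIRK1. The genes were taken from a fixed list of symbols: 13 G alpha subunits, 5 G beta subunits, 10 G gamma subunits and 17 regulators of G protein signalling (RGS). All 45 were found among the 20802 human genes measured. An activated receptor makes the G alpha subunit exchange GDP for GTP, which releases the G beta-gamma dimer. Free beta-gamma from Gi/o proteins binds GIRK channels and opens them. RGS proteins speed the hydrolysis of GTP by G alpha subunits and so shorten the signal, and they are known for setting the kinetics of GIRK currents in heart and brain.

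MCF10A is an established, non-tumorigenic line of human mammary epithelial cells. By the labels and the study's methods, 2 of the 6 libraries came from untransfected cells (wt). Another 2 came from cells stably transfected with the pIRES2eGFP vector (eGFP). The last 2 came from cells stably overexpressing KCNJ3, the gene that encodes GIRK1 (GIRK1). Both transfected lines were selected with G418 and sorted by eGFP fluorescence, so the GIRK1 line carries eGFP as well. Whether a line grew from 1 clone is not given in the sources used here. Each gene was read by 1 amplicon in an AmpliSeq panel, and the levels are total reads and RPM, the reads of a gene scaled to the size of its library. RPM compares the same gene between libraries, not different genes with each other. The libraries held from 2506120 reads (wt replicate 1) to 16040556 reads (wt replicate 2), and 3 reads, taken as the detection floor, equal 0.187 to 1.20 RPM.

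The library labelled wt replicate 1 stood apart from the other 5 and went against its label. Of 10 basal mammary markers, 4 had more than 3 reads in it, with a summed level of 392 RPM, against 9 of 10 and 9297 to 17429 RPM in the other 5 libraries. KRT14, KRT17 and KRT6A were at 0 in it, and TP63 was at 0 in all 6 libraries. The TP63 amplicon covers positions 145 to 246 of the transcript it was designed on. Whether it reads other TP63 transcripts was not tested, so 0 reads do not show that TP63 is absent. Of 10 luminal markers, all 10 exceeded 3 reads in it, with a summed level of 18911 RPM against 531 to 1029 RPM elsewhere, where ESR1, PGR, KRT19 and TFF1 were at 0. The comparisons therefore set GIRK1 against the 3 remaining control libraries (eGFP replicates 1 and 2 and wt replicate 2) and, separately, against eGFP alone. These comparisons share the GIRK1 and eGFP libraries. The wt library labelled replicate 1 is described apart, and its addition to the controls is given beside the result it changes. A tag in the names of the deposited data separates the GIRK1 libraries from the other 4, so that tag and the overexpression cannot be told apart.

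The transgene was checked first. KCNJ3 had 0 reads in the 3 control libraries and 217 and 355 RPM in the GIRK1 libraries. The library labelled wt replicate 1 held 48 reads of KCNJ3, or 19.2 RPM. The other GIRK subunit genes, KCNJ5, KCNJ6 and KCNJ9, had 0 reads in all 6 libraries, each at 1 amplicon. The study cites earlier work for GIRK4 protein, encoded by KCNJ5, in MCF10A cells. It also reports a more negative resting potential in the GIRK1 line, which the GIRK blocker tertiapin-Q reversed. Reads at 1 amplicon do not measure protein, so a partner subunit may be present.

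RGS2 rose in GIRK1 and was the 1 member of 26 tested that passed edgeR's test, in both comparisons. RGS2 is a member of the R4 subfamily of small RGS proteins that acts preferentially on Gq, and its transcript is known as inducible by cAMP. The gene lies on chromosome 1, plus strand, at positions 192809039 to 192812283 of GRCh38. Its neighbours there, RGS1 (from position 192575727) and RGS18 (from position 192158457), had 0 reads in all 6 libraries. The promoter of RGS2 is printed because RGS2 carries the difference, beside that of RGS16, the other R4 member with enough reads for the test. Both are RefSeq sequences of GRCh38.p14, 5′ to 3′ on the strand of the gene, at chr1:192808789-192809088 (plus strand) and chr1:182604340-182604639 (minus strand). Capitals mark TGACGT, the core of the cAMP response element, and CCAAT, the CCAAT box, each searched on both strands, so that a match on the other strand reads ACGTCA or ATTGG.
RGS2: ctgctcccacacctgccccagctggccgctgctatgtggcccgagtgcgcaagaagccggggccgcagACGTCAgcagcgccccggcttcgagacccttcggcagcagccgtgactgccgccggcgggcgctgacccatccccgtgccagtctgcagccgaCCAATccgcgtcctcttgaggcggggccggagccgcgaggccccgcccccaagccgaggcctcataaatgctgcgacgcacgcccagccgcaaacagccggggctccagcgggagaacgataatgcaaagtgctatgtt
RGS16: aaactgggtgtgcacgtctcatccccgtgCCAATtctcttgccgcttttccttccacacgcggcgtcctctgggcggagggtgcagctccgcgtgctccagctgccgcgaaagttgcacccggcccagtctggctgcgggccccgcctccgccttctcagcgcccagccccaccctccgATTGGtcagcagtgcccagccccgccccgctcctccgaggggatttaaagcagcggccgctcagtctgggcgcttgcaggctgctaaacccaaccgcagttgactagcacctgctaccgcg
TGACGT was matched in the RGS2 promoter on the opposite strand and was not among the letters of the RGS16 window. Of 35116 RefSeq promoters of this length, 7.98% held TGACGT and 34.6% held CCAAT. Among 78 promoters listed for 39 of the 45 members, 7 held TGACGT and 14 held CCAAT. These matches describe letters in a window, not binding.

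RGS2 stood at 18.4 RPM in wt replicate 2, at 18.5 and 20.9 RPM in eGFP replicates 1 and 2, and at 70.2 and 75.1 RPM in GIRK1 replicates 1 and 2. The reads behind these values were 295, 95, 214, 780 and 777. Both GIRK1 libraries lay far above the 3 controls, which in turn lay close together. The mean was 72.7 ± 3.45 RPM (SD, n = 2) in GIRK1 and 19.3 ± 1.42 RPM (SD, n = 3) in the controls. The fitted log2 fold change was 1.89 (SE 0.17), or 3.72-fold, with an adjusted p of 0.00407 (edgeR's quasi-likelihood test, Benjamini-Hochberg over 11389 genes). Against eGFP alone it was 1.84 (SE 0.21), with an adjusted p of 0.0151 over 11279 genes in the same test. Over all genes, 1.21% were called against the 3 controls (0.799% higher and 0.413% lower) beside 1 of 26 members tested. Against eGFP 1.52% were called, 0.78% higher and 0.745% lower, again beside 1 of 26 members. With GIRK1 replicate 1 or 2 left out, the log2 fold change against the 3 controls was 1.96 or 1.83 and the adjusted p 0.0578 or 0.101, so the call needed both GIRK1 libraries. With wt replicate 1 added to the controls, where RGS2 had 1 read, the log2 fold change was 2.28 and the adjusted p 0.737. Nothing in the labels ties replicates to separate cultures, so p-values measure the spread between these libraries, which may be technical.

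**Figure D1:**
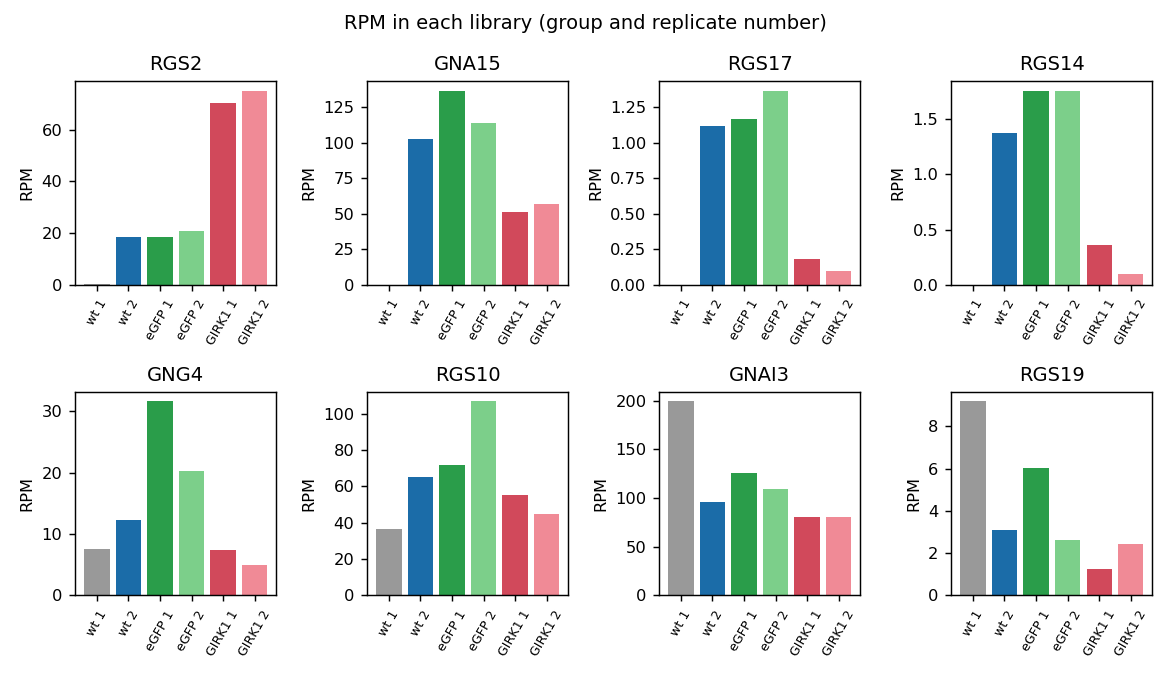
RPM (linear axis from 0) of the 8 genes described in full, 1 panel a gene and 1 bar a library, labelled by group and replicate. RGS2 reached 70.2 and 75.1 RPM in the GIRK1 libraries against 18.4 to 20.9 RPM in the 3 controls, whereas the other 7 genes were lower in both GIRK1 libraries than in wt replicate 2 and both eGFP libraries.

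Of the 45 genes, 26 had enough reads for the test, the same 26 in both comparisons, and edgeR's test called none lower. At an unadjusted p under 0.05, 7 of the 26 differed from the 3 controls, 1 higher and 6 lower, where 18.7% of all genes did so (8.58% higher and 10.2% lower). DESeq2 called 1 member higher and 3 lower (GNA15, GNG4 and RGS14), where it called 2.95% of all genes higher and 4.06% lower. The fitted log2 fold change was above 0 for 6 members and below 0 for 20, beside 5610 and 5779 of all genes tested. The median was -0.22 against -0.01 over all genes tested. Against eGFP the counts were again 6 and 20, beside 5761 and 5518 of all genes, and the median was -0.26 against 0.01. There 7 members likewise had an unadjusted p under 0.05, 1 higher and 6 lower, where 19.2% of all genes did (8.42% higher and 10.8% lower), and DESeq2 called 1 member higher and 2 lower beside 2.14% and 4.02% of all genes. In RPM, both GIRK1 libraries lay outside the 3 controls for 12 of the 25 members with a mean of at least 10 reads, 2 above and 10 below. The same held for 41.1% of all genes at that depth (21.6% above and 19.5% below), near the members' 48%. Against eGFP alone it held for 15 of the 25 members, 3 above and 12 below, and for 54.2% of all genes (29.1% above and 25.1% below). In bulk RNA, fewer cells that express a gene and less of its RNA per cell cannot be told apart.

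**Figure D2:**
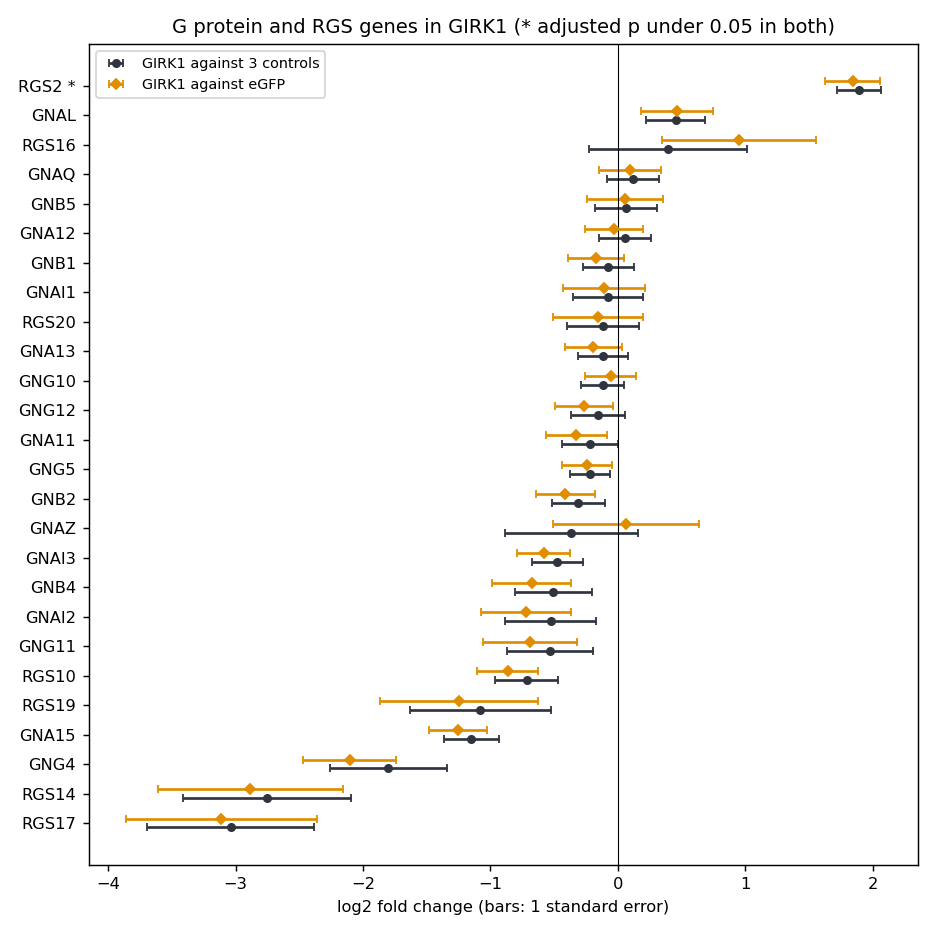
Log2 fold change in GIRK1 of the 26 tested members (horizontal axis, bars 1 standard error), against the 3 controls (circles) and against eGFP (diamonds). RGS2, marked with an asterisk, is the 1 member past the adjusted threshold of edgeR's test in both comparisons, at 1.89 and 1.84, while RGS17 has the lowest values, -3.04 and -3.11, with wide error bars.

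The Gq-type subunit GNA15, known for coupling to many different receptors, was the G alpha gene furthest from the controls, and it missed the threshold. Its level was 102 RPM in wt replicate 2, 137 and 114 RPM in eGFP replicates 1 and 2, and 51.0 and 57.0 RPM in GIRK1 replicates 1 and 2. The 5 values do not overlap between the groups. The mean was 54.0 ± 4.23 RPM (SD, n = 2) in GIRK1 and 117.6 ± 17.5 RPM (SD, n = 3) in the controls. The log2 fold change was -1.15 (SE 0.22), with an adjusted p of 0.0645 in edgeR's test, and -1.26 (SE 0.23, adjusted p 0.0575) against eGFP. DESeq2 gave adjusted p-values of 0.000348 and 0.000787 for these comparisons. Against the 3 controls edgeR's test also called it with no filter (adjusted p 0.0247), under the replicate block (0.0263) and without eGFP replicate 1 (0.00498). The gene lies on chromosome 19, plus strand, at positions 3136193 to 3163769 of GRCh38.

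The Gi/o subunits, which inhibit adenylyl cyclase and whose beta-gamma partners gate GIRK channels, gave no call in edgeR's test or in DESeq2. GNAI3 stood at 95.4 RPM in wt replicate 2, at 125 and 109 RPM in eGFP and at 80.5 and 80.8 RPM in GIRK1. Its GIRK1 values lay just under the lowest control, with a log2 fold change of -0.47 (SE 0.20, adjusted p 0.265 in edgeR's test). GNAI2 was read at 220 to 257 RPM in GIRK1 and at 248, 258 and 495 RPM in wt replicate 2, eGFP replicate 2 and eGFP replicate 1, and its groups overlap. GNAI1 was at 46.5 to 48.4 RPM in the 3 controls, while the GIRK1 libraries lay on either side, at 60.1 and 31.5 RPM. GNAZ, the subunit of Gz, stayed between 0.879 and 1.93 RPM in these 5 libraries. GNAO1 had at most 1 read in any of them.

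The other G alpha subunits gave no call in edgeR's test or in DESeq2. GNAQ, which activates phospholipase C beta, was at 83.2 and 98.9 RPM in GIRK1 and at 65.5 to 101 RPM in the controls. GNA11, from the same subfamily, was at 47.4 and 46.5 RPM against 46.8 to 64.6 RPM. GNA12 and GNA13, which form a subfamily of their own, were read at 71.4 and 77.1 RPM and at 99.0 and 98.3 RPM in GIRK1. The controls held 63.0 to 81.7 RPM of GNA12 and 96.8 to 121 RPM of GNA13, so both overlap. GNAL, a stimulatory subunit known from olfactory neurons and striatum, had 15.3 and 20.7 RPM in GIRK1 and 12.2 to 13.4 RPM in the controls. Its groups do not overlap, yet its log2 fold change of 0.45 had an adjusted p of 0.339 in edgeR's test. GNAS, the ubiquitous stimulatory subunit, had at most 2 reads in these 5 libraries. The GNAS amplicon was designed on 1 of the 18 RefSeq transcripts counted for the gene, so the other transcripts may not have been read. GNA14 had 0 reads in these libraries.

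**Figure D3:**
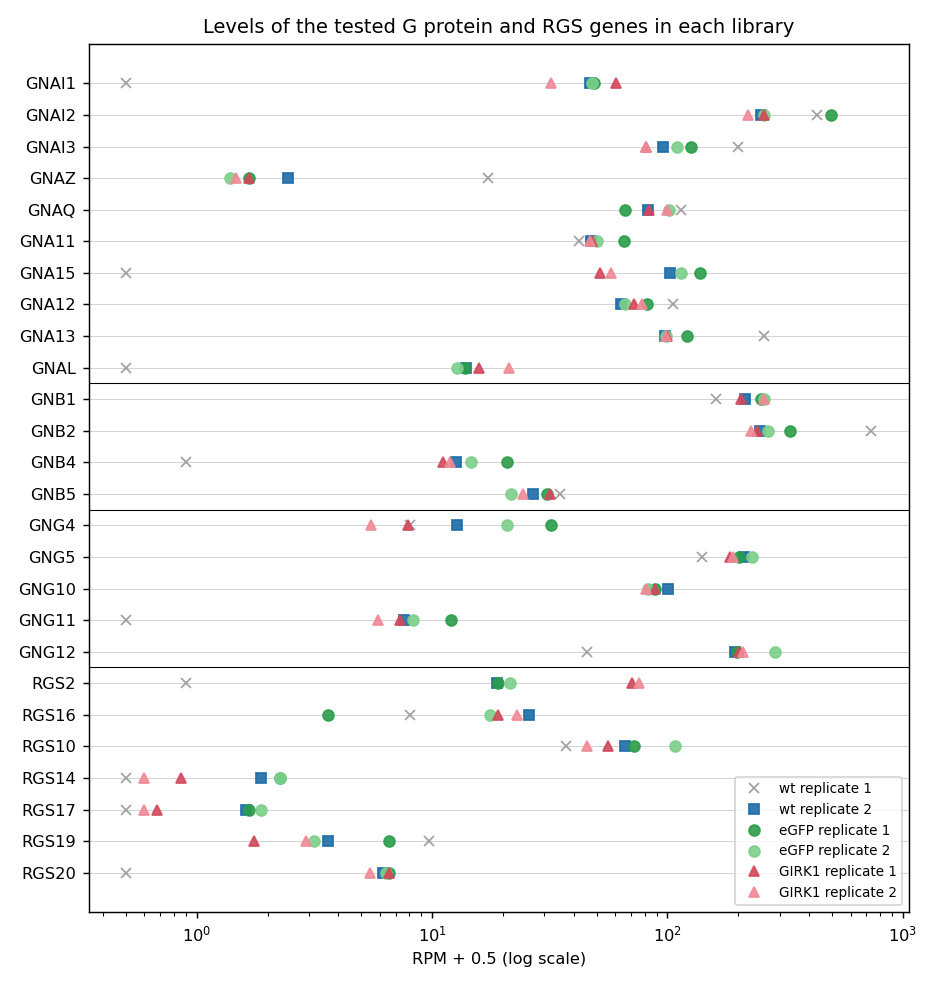
RPM + 0.5 (log axis) of the 26 tested members in each library, by role from G alpha at the top through G beta and G gamma to RGS at the bottom. Squares are wt replicate 2, circles eGFP, triangles GIRK1 and crosses wt replicate 1; the triangles of RGS2 lie above all controls, those of RGS14 and RGS17 stand for under 0.5 RPM, and the crosses of several genes fall far from the other symbols.

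The G beta and G gamma subunits form the dimer that opens GIRK channels, and edgeR's test called none of them in either comparison, while DESeq2 called GNG4 in both. Among the beta subunits, GNB1 was at 205 and 257 RPM in GIRK1 and at 213 to 257 RPM in the 3 controls. GNB2 was at 241 and 225 RPM against 248 to 332 RPM, and GNB4 at 10.6 and 11.4 RPM against 12.2 to 20.3 RPM. For GNB2 and GNB4 the GIRK1 libraries lay below all controls by a small margin. GNB5, the subunit that pairs with the R7 subfamily of RGS proteins, overlapped at 31.2 and 23.8 RPM against 21.1 to 30.2 RPM. GNB3 had at most 2 reads.

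GNG4, on chromosome 1 (235547687 to 235650754, minus strand of GRCh38), was the G gamma gene furthest from the controls. It stood at 12.2 RPM in wt replicate 2, at 31.6 and 20.3 RPM in eGFP replicates 1 and 2 and at 7.38 and 5.03 RPM in GIRK1. The groups do not overlap, but the controls differed among themselves, with a mean of 21.4 ± 9.73 RPM (SD, n = 3) against 6.20 ± 1.67 RPM (SD, n = 2) in GIRK1. The log2 fold change was -1.80 (SE 0.46, adjusted p 0.120) against the 3 controls and -2.10 (SE 0.36, adjusted p 0.0511) against eGFP in edgeR's test. DESeq2 called it in both comparisons, with adjusted p-values of 0.00491 and 8.56e-05. GNG5 (183 and 189 RPM in GIRK1, 200 to 229 RPM in the controls) and GNG11 (6.84 and 5.41 RPM against 7.11 to 11.5 RPM) also lay just below the controls. GNG10 and GNG12 overlapped, at 80.7 to 88.1 and 201 to 209 RPM in GIRK1. All 5 tested gamma genes had a log2 fold change below 0 against the 3 controls, as did 5779 of all 11389 genes tested. The median of the 5 was -0.22, against -0.01 over all genes tested. Of the remaining 5 gamma genes, GNG8 was at 0 in all 6 libraries, and GNG2, GNG3 and GNG13 had at most 3 reads in these 5. GNG7, not tested, had 8, 0 and 5 reads in wt replicate 2 and eGFP replicates 1 and 2. In GIRK1 it had 10 and 14 reads, which in RPM lay above the controls (0.900 and 1.35 against 0 to 0.499).

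Among the 26 members tested, RGS17 and RGS14 had the lowest fitted fold changes, at few reads. RGS17, an RZ regulator of Gz and Gi, lies on chromosome 6 (153004459 to 153131249, minus strand of GRCh38). It had 18 reads in wt replicate 2, 6 and 14 in eGFP and 2 and 1 in GIRK1. In RPM these were 1.12, 1.17 and 1.37 in the controls and 0.180 and 0.097 in GIRK1. Pooled, 38 control reads against 3 GIRK1 reads gave a ratio of 8.65, with an exact 95% interval of 2.75 to 43.8 that covers counting error only. The fitted log2 fold change was -3.04 (SE 0.66), with an adjusted p of 0.0851 in edgeR's test.

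RGS14, an R12 protein that also binds inactive Gi subunits and Ras, lies on chromosome 5 (177357837 to 177372601, plus strand of GRCh38) and was similarly low. It had 22, 9 and 18 reads in wt replicate 2 and eGFP replicates 1 and 2, against 4 and 1 in GIRK1. That is 1.37, 1.76 and 1.76 RPM in the controls and 0.360 and 0.097 RPM in GIRK1. The pooled ratio of 49 to 5 reads was 6.70, with an exact 95% interval of 2.68 to 21.5, and the log2 fold change was -2.75 (SE 0.66, adjusted p 0.107 in edgeR's test). Without GIRK1 replicate 1 it was -3.90 and without GIRK1 replicate 2 it was -2.16, so its size depended on which GIRK1 library was used. Both genes were thus lower in each GIRK1 library than in each control, at few reads, and edgeR's test did not call them with all 5 libraries. DESeq2 called RGS14 against the 3 controls (adjusted p 0.0486) but not against eGFP (0.160), and RGS17 in neither (0.0702 and 0.212). Without eGFP replicate 1, edgeR's test against the remaining controls called both, with adjusted p-values of 0.0459 for RGS14 and 0.0367 for RGS17.

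RGS10, the other R12 regulator tested, was at 65.3 RPM in wt replicate 2, at 71.8 and 106.7 RPM in eGFP and at 55.5 and 44.8 RPM in GIRK1. Its groups do not overlap, and its log2 fold change was -0.72 (SE 0.25, adjusted p 0.201 in edgeR's test). RGS19, an RZ protein that also binds the trafficking adaptor GIPC, was at 3.12 RPM in wt replicate 2, at 6.05 and 2.64 RPM in eGFP and at 1.26 and 2.42 RPM in GIRK1. The gap between GIRK1 replicate 2 and eGFP replicate 2 was narrow, and the log2 fold change of -1.08 (SE 0.55) had an adjusted p of 0.344. RGS20 overlapped, at 6.03 and 4.93 RPM in GIRK1 and 5.67 to 6.05 RPM in the controls.

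RGS16, an inducible R4 regulator, differed most between the eGFP libraries, at 3.12 and 17.1 RPM, which are 5.48-fold apart. It was at 25.4 RPM in wt replicate 2 and at 18.6 and 22.5 RPM in GIRK1, inside the range of the controls. Its log2 fold change was 0.40 against the 3 controls and 0.95 against eGFP. RGS19 was 2.29-fold apart between the eGFP libraries. With RGS16 it made 2 of the 25 members averaging at least 10 reads there that were at least 2-fold apart. Of all genes at that depth, 14.2% were. Between the GIRK1 libraries 0 of 25 members were 2-fold apart by the same criterion, against 4.07% of all genes at that depth. The depth was taken in each pair, so RGS14 and RGS17, at few reads in GIRK1, were counted for eGFP only.

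The 10 remaining RGS genes were too low for the test. RGS1, RGS4, RGS5, RGS6 and RGS18 were at 0 in all 6 libraries, and RGS3, RGS7 and RGS9 had at most 3 reads in the 5 compared. RGS12 had 6 reads in each GIRK1 library and 0 in the 3 controls, and RGS11 had 6, 1 and 0 reads in wt replicate 2 and eGFP against 1 and 0 in GIRK1. For RGS3, RGS5, RGS6, RGS7 and RGS12, with 12 to 34 RefSeq transcripts each, the amplicon was designed on 1 transcript, and how many others it reads was not tested. None of the 4 members of the R7 subfamily (RGS6, RGS7, RGS9 and RGS11), which regulate GIRK currents in neurons, was tested.

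The genes around these proteins were taken from lists of chaperones and modulators, adenylyl cyclases and protein kinase A, effectors of Gq and of the G12 type, receptor kinases and arrestins, and receptors. With the G protein and RGS genes outside the 45, these lists held 92 measured genes, of which 33 were tested. In edgeR's test and in DESeq2, 0 of the 33 passed the adjusted threshold in either comparison. Over all genes edgeR called 1.21% and 1.52%. At an unadjusted p under 0.05, 5 of the 33 differed from the 3 controls (3 higher and 2 lower) and 6 from eGFP (2 higher and 4 lower), where 18.7% and 19.2% of all genes did. The 33 genes had a median log2 fold change of -0.09 against the 3 controls.

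The library labelled wt replicate 1 differed from the 3 other controls in G protein genes of every class, and with 1 library there is no test. Of the 45 members, 4 were at least 4-fold above the highest control, 8 were at least 4-fold below the lowest, 15 lay within 4-fold and 18 had too few reads. Over the 11110 genes with enough reads by the same criterion, 9.56% were 4-fold above and 6.89% were 4-fold below, beside 4 and 8 of the 27 such members. GNA14, a Gq-type subunit, had 132 reads or 52.7 RPM (exact Poisson 95% interval 44.1 to 62.5) and 0 reads in the controls, at least 90.0-fold above their floor of 3 reads. GNG13 had 12 reads or 4.79 RPM, at least 8.18-fold above the same floor. GNAZ had 42 reads or 16.8 RPM, 8.67-fold above the highest control. GNAS had 34 reads or 13.6 RPM against 4 reads in the 3 controls together, a ratio of 107 with an exact 95% interval of 38.0 to 413. These 4 genes were the ones high in this library, and GNA14 and GNG13 were at 0 in the GIRK1 libraries too.

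On the low side, GNA15, GNAI1, GNAL, GNG11 and RGS20 had 0 reads in wt replicate 1. Against its floor of 1.20 RPM the lowest control was at least 85.6-fold higher for GNA15, 38.9-fold for GNAI1, 10.2-fold for GNAL, 5.94-fold for GNG11 and 4.74-fold for RGS20. RGS2 had 1 read there and 604 in the 3 controls together, a ratio of 48.2 with an exact interval of 8.62 to 1907. GNB4 likewise had 1 read against 443 (ratio 35.4, interval 6.31 to 1400). GNG12 had 45.1 RPM, 4.26-fold below the lowest control. Between the wt libraries 17 of the 27 members averaging at least 10 reads there (63.0%) were at least 2-fold apart. Of all genes at that depth, 46.5% were. The basal and luminal markers moved with these differences, as given above, and their part in them was not tested.

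**Figure D4:**
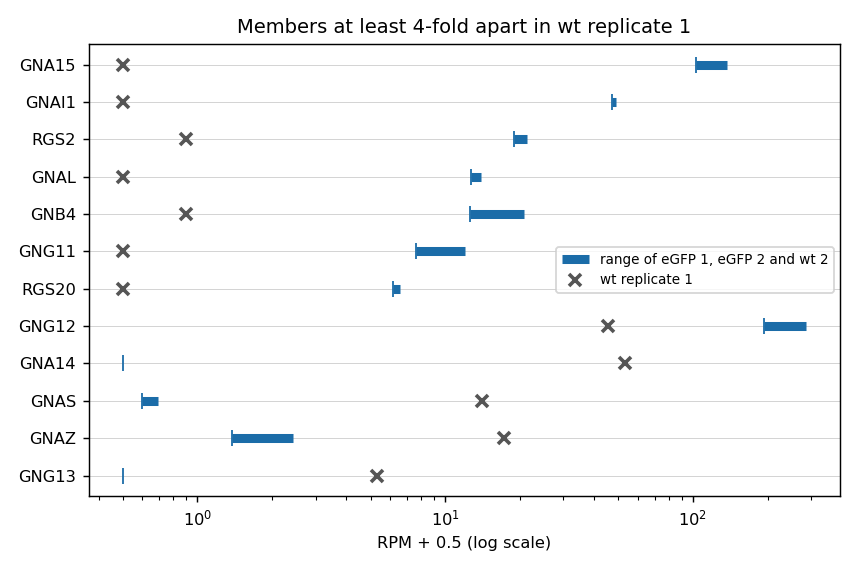
RPM + 0.5 (log axis) in wt replicate 1 (crosses) and the range of eGFP replicates 1 and 2 and wt replicate 2 (bars, with a tick at the lowest) for the 12 members at least 4-fold apart. GNA15, GNAI1, GNAL, GNG11 and RGS20 were at 0 reads in wt replicate 1, and GNA14 reached 52.7 RPM there with 0 reads in the controls.

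Marker genes of the cell line also differed in GIRK1. KRT17, a basal keratin, had a log2 fold change of 1.87 against the 3 controls (adjusted p 0.0278 in edgeR's test), and LAMB3, a laminin chain, -2.50 (adjusted p 0.0442). The summed level of the 10 basal markers, 10596 and 11108 RPM in GIRK1, lay inside the 9297 to 17429 RPM of the 3 controls, and that of the 10 luminal markers, 869 and 829 RPM, lay inside their 531 to 1029 RPM. These sums were carried by a few genes: the mean of KRT5 was 4035 RPM in GIRK1 and 6754 RPM in the controls, and that of KRT17 4157 and 1125 RPM. Of the 9 basal markers tested, both GIRK1 libraries lay below all controls for 5 (LAMB3, VIM, ITGB4, KRT14 and LAMA3), with a log2 fold change of -0.83 for VIM (adjusted p 0.153 in edgeR's test). Both lay above all controls for 1 marker, KRT17. Across the whole series, 19.5% of genes averaging 10 reads or more lay below all controls in this way, and 21.6% lay above. The luminal markers were split: of the 6 tested, 3 had a log2 fold change above 0 against the 3 controls and 3 below. Both GIRK1 libraries lay above all controls for 1 of them, AGR2, and below all controls for 2, GATA3 and KRT8. AGR2 had a log2 fold change of 1.79 (adjusted p 0.241 in edgeR's test). It was at 9.72 and 6.09 RPM in GIRK1 and 0.195 to 4.12 RPM in the controls. GATA3 had a log2 fold change of -0.37 and KRT8 of -0.26. The part of these markers in the RGS2 difference was not tested.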

How the data were processed

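Total RNA of 6 libraries, given as MCF10A by the study, was amplified with the Ion AmpliSeq Transcriptome panel and sequenced on an Ion S5 XL. The panel reads each gene by 1 amplicon. The markers of wt replicate 1 went against its label, as given above. Per the labels and the study's methods, the authors mapped reads to the panel reference with the Ion Torrent workflow and deposited, per library, read counts per amplicon and RPM, which are counts scaled to the library's total reads. The 10 spike-in entries of 20812 were left out. Samples were grouped by the labels. From the deposited counts, genes that passed filterByExpr were fitted with TMM scaling in edgeR 4.0.16 (limma 3.58.1, R 4.3.3) by its quasi-likelihood test, GIRK1 against 3 controls (11389 genes) and against eGFP (11279 genes), with Benjamini-Hochberg adjustment and a threshold of 0.05. Members' results were read from these fits. The floor is 3 reads, and intervals cover counting error only, since the reads carry no molecular identifiers.

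Described in full were members with an adjusted p under 0.05, then those with an unadjusted p under 0.05 against the 3 controls, then those with a mean of at least 10 reads whose GIRK1 libraries lay outside the controls with means at least 1.5-fold apart. In wt replicate 1, members 4-fold outside the controls were named. The members and lists were chosen with earlier results of these data known. Simulated counts used the mean of each gene and a single dispersion shared by all genes, with 200 genes changed. For GIRK1 against 3 controls (11389 genes), the test recovered 13.5% of 2-fold, 95.5% of 4-fold and 98% of 8-fold changes. Against eGFP (11279 genes) it recovered 3.5%, 93% and 98%. No pair of same-group libraries agreed within sampling noise (chi-square per degree of freedom 26.4 for GIRK1, 61.5 for eGFP, 202 for wt), which does not show that replicates were independent cultures. The alternatives were other scalings and filters, DESeq2 1.42.0, a GC offset, a replicate block, single libraries left out, wt replicate 1 added, and eGFP and wt replicate 2 as separate groups. Gene positions are from GENCODE v29 (45 of 45 matched), and promoters are from RefSeq. Same-numbered libraries deviated together with a correlation of 0.193 for eGFP and GIRK1, and the numbers were not taken as pairs. The correlations with wt, 0.13 (eGFP) and 0.0362 (GIRK1), rest on wt replicate 1, whose markers went against its label. Those values therefore cannot show pairing or its absence.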

Additional observations from a re-analysis of the deposited data

Results flagged for a closer look

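The library labelled wt replicate 1 entered neither main test. In it, 4 of the 45 members and KCNJ3 were at least 4-fold above the 3 other controls, as were 9.56% of all genes with enough reads. GNA14 was at 52.671 RPM, GNAZ at 16.759 RPM, GNAS at 13.567 RPM and GNG13 at 4.788 RPM. KCNJ3, the transgene of the GIRK1 line, was at 19.153 RPM in this library and at 0 reads in the other 3 controls.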

How the results depend on the processing

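No fold change of a gene described in full changed sign under the alternatives run. Against the 3 controls, 1 member was called, and 91 genes higher and 47 lower. Members and genes called became 3 and 374 with no filter, 4 and 798 with DESeq2, 3 and 558 under the replicate block, and 0 and 7 with wt replicate 1 added. Leaving out single libraries gave 0 to 5 members and 19 to 984 genes (984 without eGFP replicate 1, 31 without eGFP replicate 2, 33 and 19 without GIRK1 replicate 1 and 2). Against eGFP, 1 member and 172 genes became 3 and 881 with no filter, 3 and 694 with DESeq2 and 3 and 590 with the block. Total reads and the GC offset gave 2 members each, 10 reads in every library 111 genes, and single libraries left out 0 to 10 members and 89 to 2933 genes (718 and 2933 without eGFP replicate 1 and 2). The balance of called genes against the 3 controls also shifted, to 182 higher and 192 lower with no filter, 336 and 462 with DESeq2, 232 and 326 under the block and 485 and 499 without eGFP replicate 1. Against eGFP it was 88 and 84, and 321 and 560, 241 and 453, and 217 and 373 under the same settings of filter, test and block. The cause of these shifts was not tested. The block did not rest on a pairing in the labels beyond shared numbers.

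RGS2 kept a log2 fold change of 1.71 to 2.28 against the 3 controls and of 1.55 to 1.91 against eGFP. Against eGFP its adjusted p was 0.0540 and 0.0786 without GIRK1 replicate 1 and 2 in edgeR's test. GNA15 and GNG4 gained a call with no filter, DESeq2 and the block in both comparisons. Without eGFP replicate 1, GNA15, GNG4, RGS14 and RGS17 gained a call against the 3 controls, where 984 of 11274 genes were called. Against eGFP, leaving out 1 eGFP library left a single one in the group. Without eGFP replicate 1 or 2, the log2 fold change there was -1.06 or -1.44 for GNA15 and -1.70 or -2.45 for GNG4. For RGS10 it was -1.08 or -0.62, for GNAI3 -0.42 or -0.74, for RGS19 -0.51 or -1.82 and for RGS2 1.81 or 1.87. In simulated counts with a dispersion shared by all genes, 2-fold changes were mostly missed. That setting does not give the recovery for GNA15 itself. The 19 members that were not tested had too few reads for a comparison.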
